A study of Mus musculus with 6 samples.

Results

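Elastic fibres are the stretchable component of the extracellular matrix. A core of cross-linked elastin is laid down on a scaffold of fibrillin microfibrils, and fibulins, EMILINs and latent TGF-beta binding proteins link the core, the scaffold and the cell surface. Microfibrils also hold latent TGF-beta and BMP growth factors, and EMILIN-1, encoded by Emilin1, is known to restrain the processing of the TGF-beta precursor and to bind integrins. The 10 genes described here are the emilins Emilin1 and Emilin2, the fibrillins Fbn1 and Fbn2, the fibulins Fbln1, Fbln2 and Fbln5, elastin (Eln), the microfibril protein gene Mfap2 and the latent TGF-beta binding protein gene Ltbp4. They were taken by symbol from a table of 54532 genes, and each symbol had 1 row. The set was built around Emilin1 because its level was low with the Baf45d siRNA in these same libraries. The difference between the siRNA groups is therefore given for every gene as a description, and no test of it is offered in support.

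The cells were P19, a mouse embryonal carcinoma line that turns into neural cells under retinoic acid. One group of 3 libraries came from cells given a negative control (NC) siRNA and the other group of 3 from cells given an siRNA against Baf45d, the product of Dpf2, which belongs to the BAF chromatin remodeller. Both groups were transiently transfected and then differentiated with all-trans retinoic acid for 5 days, and the labels call the samples biological replicates of a single line. Libraries held 17127876 to 21224822 counts. Levels of Dpf2 were close in the groups, with means of 155.9 ± 1.75 CPM for NC and 145.6 ± 3.68 CPM for Baf45d (SD, n = 3 libraries), where CPM is a count scaled to a common library size. Every Baf45d library lay below every NC library, which held for 4.3% of all genes tested. The same-numbered log2 differences were -0.08, -0.12 and -0.10. The fitted log2 fold change was -0.10 (SE 0.07), and the groups are named as labelled. As markers of the culture, all 5 neuronal genes examined (Tubb3, Map2, Dcx, Elavl3 and Stmn2) passed the filter on low counts and summed to between 643 and 1035 CPM per library. The 11 mesenchyme markers, described further on, also all passed and summed to between 1278 and 1766 CPM. Of the pluripotency markers, Pou5f1 had 57 to 76 counts per library, Nanog 22 to 41 and Zfp42 0. Of the endoderm markers, Gata6 had 896 to 1588 counts and Gata4 78 to 133, Sox17 and Foxa2 had at most 13 and Afp had 0.

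The promoters of Emilin1 and Fbn1 are shown because these genes followed different patterns over the 6 libraries, as described further on. Each window runs from 250 bases before to 50 bases after a RefSeq start on GRCm38.p6, and capitals mark CAGAC, the core letters of the SMAD-binding element, on either strand (GTCTG on the other). The Emilin1 window is chr5:30913536-30913835 on the plus strand and the Fbn1 window is chr2:125506389-125506688 on the minus strand. Both lie inside the annotated gene spans, which begin at 30913402 for Emilin1 and, on the minus strand, at 125507993 for Fbn1. The sequence before these outermost starts was not scanned.
Emilin1: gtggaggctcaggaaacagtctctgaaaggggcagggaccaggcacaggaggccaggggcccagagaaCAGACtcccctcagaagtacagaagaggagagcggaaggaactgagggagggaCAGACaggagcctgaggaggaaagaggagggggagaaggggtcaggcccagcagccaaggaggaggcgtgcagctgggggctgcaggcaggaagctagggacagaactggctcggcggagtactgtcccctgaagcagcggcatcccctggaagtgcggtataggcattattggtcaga
Fbn1: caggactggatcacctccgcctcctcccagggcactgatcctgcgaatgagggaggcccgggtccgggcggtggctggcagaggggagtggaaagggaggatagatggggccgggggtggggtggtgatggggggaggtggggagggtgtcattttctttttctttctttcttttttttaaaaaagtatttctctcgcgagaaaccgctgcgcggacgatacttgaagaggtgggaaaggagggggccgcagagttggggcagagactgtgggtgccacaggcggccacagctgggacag
The Emilin1 window held 2 CAGAC matches and the Fbn1 window held 0, and 49.6% of 32817 promoter windows of the same length held at least 1. GGGCGG, the GC box, was found once in the Fbn1 window and 0 times in that of Emilin1, against 35.6% of all windows with a match. TATAAA, the TATA box, was in neither window and in 13.6% of all windows. In both genes no match of one motif overlapped another. The GC content was 61.7% for Emilin1 and 60.3% for Fbn1, against a median of 52.7% over all windows. Of the other genes scanned, Emilin2 had 1 CAGAC match in each of its windows. The overlapping windows of Fbln1 held the same 2 matches. Mfap2 had 0 and 1, and Fbln2 had 0. Fbn2 and Eln were not scanned, and a link between matches and profiles was not tested. Fbln5, whose profile resembled that of Fbn1, had 1 and 2 CAGAC matches in its windows. Ltbp4, nearer in profile to Emilin1, had 0 in all 3 of its windows, 2 of which largely overlap. A match of letters says nothing about binding in these cells.

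All 10 genes had reads, and their levels spanned about 3 orders of magnitude in FPKM, the deposited unit that divides counts by gene length and library depth. Mfap2, which encodes a small glycoprotein bound to fibrillin, had the highest level, at 82.3 ± 11.6 FPKM with NC siRNA and 78.3 ± 8.58 FPKM with Baf45d siRNA (SD, n = 3). Emilin1 followed at 28.9 ± 7.16 FPKM in the NC group, and Fbn2, the fibrillin typical of embryonic microfibrils, stood beside it at 28.2 ± 2.65 FPKM. The ranges of these 2 genes over the NC libraries overlapped. Ltbp4 (17.8 ± 1.64 FPKM) and Fbln1 (17.4 ± 1.48 FPKM) formed the next pair, again with overlapping ranges. Fbn1 stood at 9.95 ± 0.750 FPKM, Fbln2 at 4.46 ± 0.500 FPKM, Emilin2 at 2.14 ± 0.537 FPKM and Fbln5 at 0.991 ± 0.157 FPKM, each clear of its neighbours in every NC library.

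Elastin itself was almost absent from these cultures. Eln, on chromosome 5 (134702593 to 134747323, minus strand, GRCm38), had 7, 11 and 15 counts in NC replicates 1 to 3 and 5, 2 and 8 counts in Baf45d replicates 1 to 3. That corresponds to 0.0716 ± 0.0284 FPKM and 0.0344 ± 0.0196 FPKM (SD, n = 3). The groups overlapped, and Eln lay under the filter on low counts, so it has no fitted fold change. The other 9 genes passed the filter with at least 74 counts in every library. The transcripts present were thus those of the microfibril scaffold and its binding proteins, with that of the elastic core near the floor of detection.

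**Figure D1:**
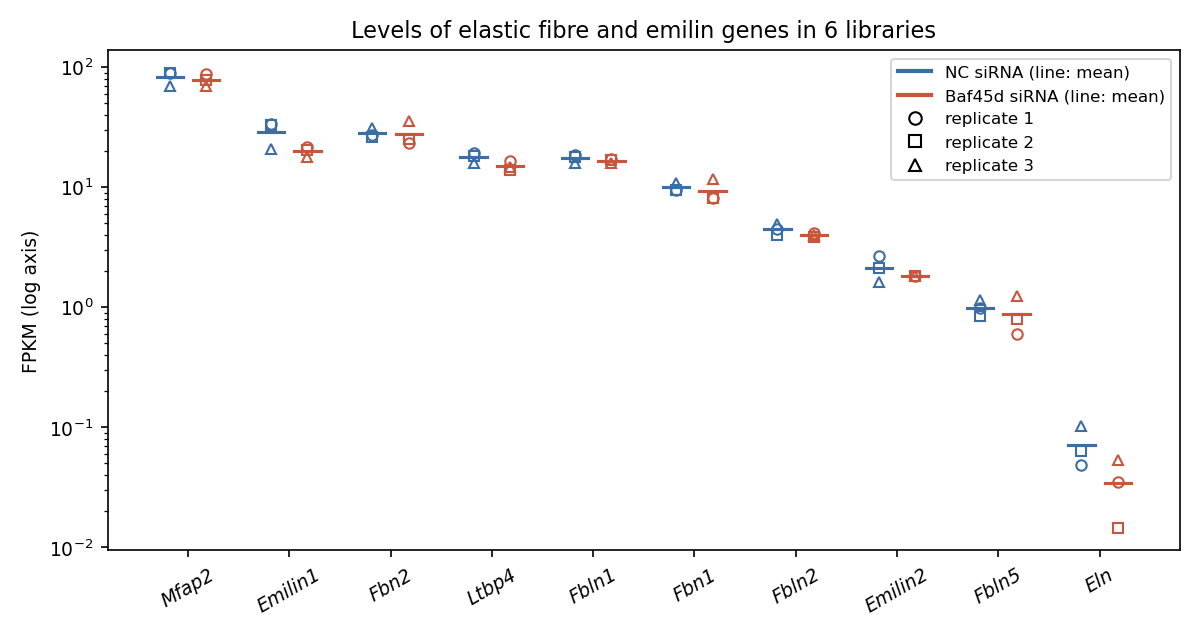
Deposited FPKM (log axis) of the 10 genes in each library, with NC siRNA in blue and Baf45d siRNA in red, a symbol per replicate number and a line at each group mean. Mfap2 is highest at 82.3 and 78.3 FPKM, Eln lies below 0.2 FPKM throughout, and for Emilin1 the third NC library sits among the Baf45d libraries.

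The order of levels with Baf45d siRNA differed from that with NC siRNA in 2 exchanges between neighbours. Emilin1 moved from the second to the third place, behind Fbn2 (20.0 ± 2.02 against 27.9 ± 6.53 FPKM), and there the ranges of the genes did not overlap. Ltbp4 (15.03 ± 1.40 FPKM) came after Fbln1 (16.7 ± 0.629 FPKM), with overlapping ranges. All other places were the same in both groups.

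Emilin1 (chromosome 5, 30913402 to 30921277, plus strand, GRCm38) was lower on average with Baf45d siRNA, yet the groups overlapped. It measured 165.6, 161.8 and 102.3 CPM in NC replicates 1 to 3 and 107.7, 102.2 and 87.8 CPM in Baf45d replicates 1 to 3. NC replicates 1 and 2 stood high, and NC replicate 3 lay within the range of the Baf45d libraries. The log2 fold change was -0.53 (SE 0.17), or -30.7%. Within the NC group, replicate 3 lay below the mean of replicates 1 and 2 by a log2 difference of -0.68, a larger step than that between the groups. Between libraries of the same number the log2 differences, Baf45d minus NC, were -0.62, -0.66 and -0.22.

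No gene of the 16078 tested, Emilin1 included, passed an adjusted p of 0.05 in the edgeR quasi-likelihood test (0% called), and 459 had an unadjusted p under 0.05. DESeq2 and limma-voom also called 0 genes. In 2 alternatives Emilin1 was among the genes called. Without a filter on low counts it was 1 of 10 genes of 29811 (0.0335% called, log2 fold change -0.54, edgeR adjusted p = 0.000421). Its fold change there was close to that of the main fit (-0.53), while the SE was 0.10 against 0.17. Without both libraries numbered 3, a choice made after seeing the values, Emilin1 was 1 of 20 genes of 16149 (0.124% called, log2 fold change -0.64, edgeR adjusted p = 0.0305). Emilin1 was picked on this same contrast, so both adjusted p-values are a description and give no support. In a fit blocked on replicate number, 1 gene was called (0.00622%), and without Baf45d replicate 3 there were 44 (0.269%), with none of the 10 genes among them. Over the alternatives other than these first 2 its edgeR, DESeq2 or limma adjusted p ran from 0.131 to 1.00. Omission of NC replicate 1 gave a log2 fold change of -0.41 and omission of NC replicate 3 gave -0.72, the ends of the range over single omissions.

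Emilin2, a paralogue of Emilin1, was measured at a far lower level and with a similar order of the NC libraries. It stood at 14.9, 11.7 and 8.95 CPM in NC replicates 1 to 3 and at 10.0, 10.2 and 9.96 CPM in Baf45d replicates 1 to 3. The Baf45d libraries lay close together inside the wide NC range. Its log2 fold change was -0.24 (SE 0.18), from -0.40 to -0.04 over single omissions, where the smallest size came without NC replicate 1. Between libraries numbered 1 the difference was -0.57, and between those numbered 3 it was 0.15.

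Ltbp4, which tethers latent TGF-beta to the matrix and supports elastin deposition, overlapped between the groups through a single pair of libraries. Its levels were 124.6, 118.2 and 103.8 CPM in NC replicates 1 to 3 and 107.5, 89.5 and 95.7 CPM in Baf45d replicates 1 to 3. One Baf45d library, replicate 1, lay above NC replicate 3, and the remaining Baf45d libraries lay below all NC libraries. The log2 fold change was -0.24 (SE 0.10), and all 3 same-numbered differences were negative (-0.21, -0.40 and -0.12). It ran from -0.32 to -0.18 over single omissions.

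Of the microfibril components, Mfap2 and both fibrillins hardly differed in group mean. Mfap2 had 107.9, 108.6 and 83.8 CPM with NC siRNA and 106.2, 94.7 and 84.9 CPM with Baf45d siRNA, with the lowest value of each group in replicate 3. Its log2 fold change was -0.07 (SE 0.12). Fbn2, on chromosome 18, had 284.2, 278.0 and 329.2 CPM with NC siRNA and 244.4, 266.0 and 371.4 CPM with Baf45d siRNA. Here replicate 3 was the highest of each group, the reverse of Mfap2. Its log2 fold change was -0.02 (SE 0.15), with a sign that turned in 3 of 6 single omissions (-0.22 to 0.10). Fbn1, the fibrillin mutated in Marfan syndrome in humans, followed Fbn2, at 115.6, 116.4 and 131.8 CPM with NC siRNA and 99.4, 99.7 and 141.8 CPM with Baf45d siRNA. Baf45d replicates 1 and 2 were the lowest of all 6 libraries and Baf45d replicate 3 the highest, for a log2 fold change of -0.09 (SE 0.14). An antisense gene, Gm9913, shares 2442 exon bases with Fbn1 in GENCODE M21 but had only 3 counts over the 6 libraries. The coordinates of Fbn2 in GENCODE M21 differ from the deposited ones. By the M21 exons Gm26507, antisense to Fbn2, shares 129 exon bases, and it had 879 counts. The use of strand in the counting is not given in the sources used here, so these reads cannot be assigned with certainty.

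The fibulins, which bridge elastin, microfibrils and cells, differed among themselves. Fbln1 was the steadiest of the 10 genes, at 81.6, 78.8 and 69.2 CPM with NC siRNA and 75.4, 74.0 and 69.8 CPM with Baf45d siRNA. Its highest library was 1.18 times its lowest, and the log2 fold change was -0.07 (SE 0.09). Fbln2 stood at 28.4, 25.4 and 31.8 CPM and at 26.5, 24.8 and 25.6 CPM, for a log2 fold change of -0.15 (SE 0.11). All 3 same-numbered differences of Fbln2 were negative, with -0.31 in the third. Fbln5, which recruits cross-linking enzymes to elastin, spread the most among the tested genes, with its highest library 2.05 times its lowest. Its levels were 6.83, 5.82 and 8.002 CPM with NC siRNA and 4.198, 5.52 and 8.60 CPM with Baf45d siRNA. The highest and the lowest value were both in the Baf45d group, and the log2 fold change of -0.17 (SE 0.26) turned to 0.04 without Baf45d replicate 1.

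**Figure D2:**
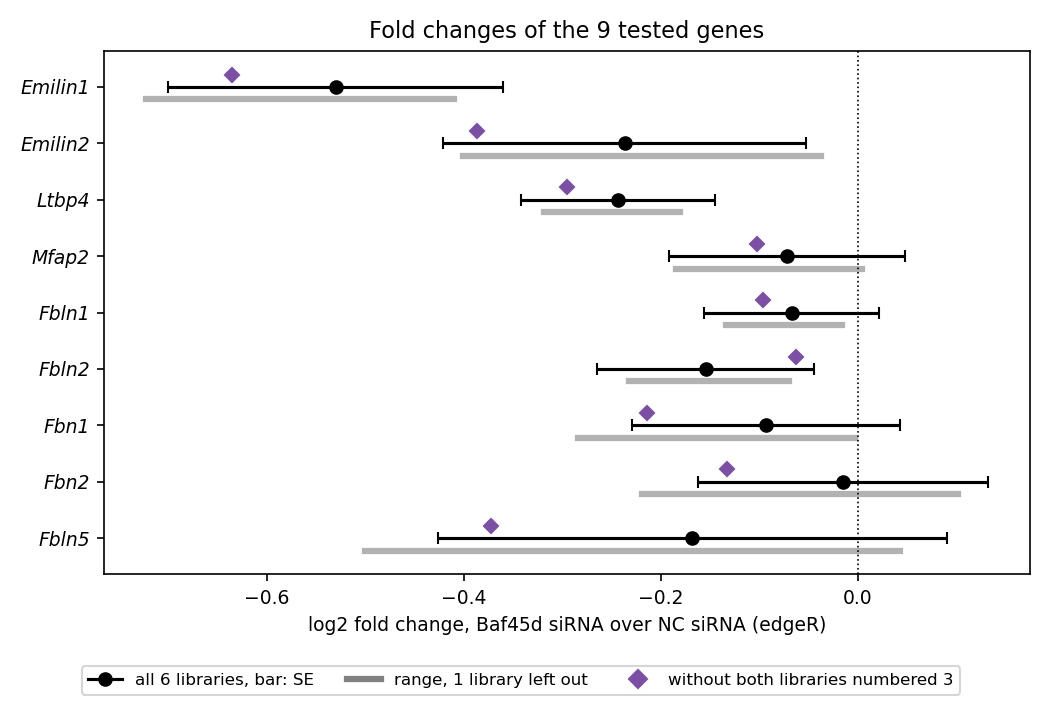
Log2 fold change of the 9 tested genes, Baf45d siRNA over NC siRNA, with all 6 libraries (dots, bars are SE), its range when 1 library is left out (grey bars) and its value without both libraries numbered 3 (diamonds). Emilin1 lies lowest at -0.53, and the grey bars of Fbn2, Fbln5 and Mfap2 reach across 0.

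The log2 fold change was below 0 for all 9 tested genes, and its median was -0.15, against 48.1% of all genes tested and a median of 0.01. Since the set was chosen on this contrast, the share is a description. For 0 of the 9 did all Baf45d libraries lie on one side of all NC libraries, which held for 8.04% of all genes tested. The count of negative values ran from 7 to 9 of 9 over single omissions, with the lowest without Baf45d replicate 1.

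The same-numbered libraries divided the set. Between libraries numbered 1, all 9 genes were lower with Baf45d siRNA (50.2% of all genes tested), and between those numbered 2 again all 9 (50.1%). Between libraries numbered 3, only Emilin1, Fbln2 and Ltbp4, 3 of 9, were lower (49.6%). Without both of those libraries, 8 of 9 genes were lower in each remaining Baf45d library than in each NC library, the exception being Fbln2, where 20.8% of all genes tested were lower in this way and 41.7% were separate in either direction. With 2 libraries a group such separation is common, as these shares show.

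Relative to replicates 1 and 2 of its own group, replicate 3 was low for Emilin1, Mfap2 and Fbln1 and high for Fbn1, Fbn2 and Fbln5 in both groups. In the NC group the log2 steps were -0.68 for Emilin1, -0.56 for Emilin2, -0.37 for Mfap2, -0.23 for Ltbp4 and -0.21 for Fbln1. In the same group they were 0.18 for Fbn1, 0.23 for Fbn2, 0.24 for Fbln2 and 0.34 for Fbln5. In the Baf45d group they were -0.26 for Emilin1, -0.24 for Mfap2 and -0.10 for Fbln1, and 0.51 for Fbn1, 0.54 for Fbn2 and 0.84 for Fbln5. Emilin2, Ltbp4 and Fbln2 were nearly level there, at -0.02, -0.03 and 0.00.

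**Figure D3:**
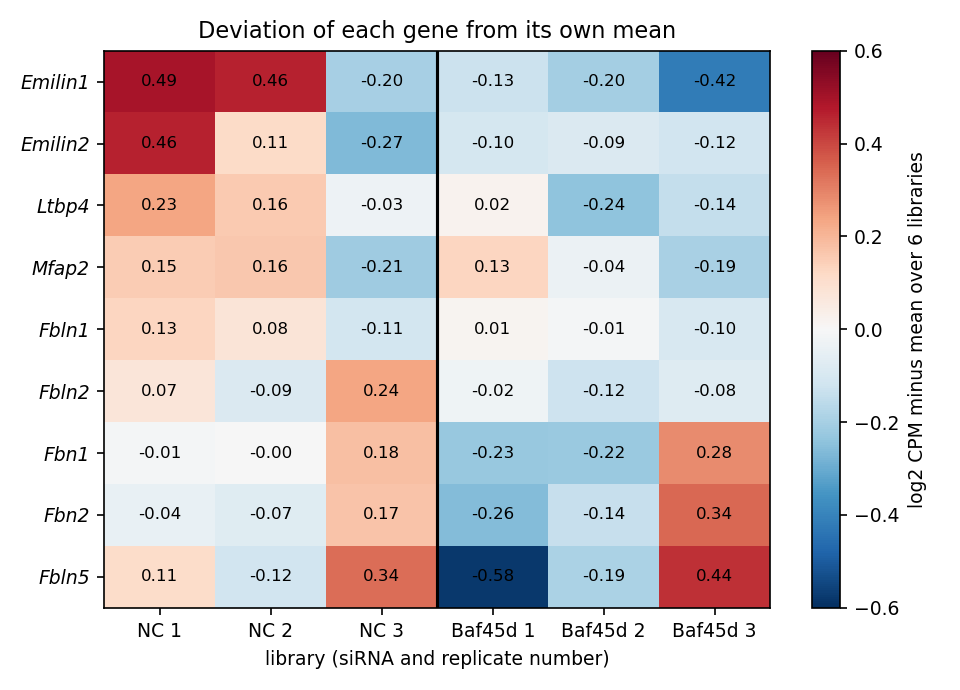
Heat map of the deviation of log2 CPM from the 6-library mean of each gene for the 9 tested genes, with libraries in columns, the groups parted by a line and each value printed. Emilin1 is high in NC replicates 1 and 2 (0.49 and 0.46) and lowest in Baf45d replicate 3 (-0.42), while Fbn1, Fbn2 and Fbln5 are highest in that library.

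Some markers of other cell types varied over the libraries in similar ways, and others did not. The 11 mesenchyme markers, among them the type I collagen genes, summed to 1758, 1766 and 1284 CPM in NC replicates 1 to 3 and to 1464, 1405 and 1278 CPM in Baf45d replicates 1 to 3, so NC replicate 3 again lay among the Baf45d libraries. Of these markers 8 had a negative and 3 a positive log2 fold change, and none was at 0. Most of the sum came from Col1a1, Col1a2 and Col3a1, and single markers departed from it. Dcn was highest in replicate 3 of both groups (139.9 and 153.9 CPM), as was Twist2 among the Baf45d (2.23 CPM) and among the NC libraries (2.52 CPM), and Twist1 stood between 58.5 and 69.8 CPM throughout. The sum of the 4 smooth muscle markers, mostly Acta2, was 153, 143 and 230.3 CPM with NC siRNA and 72.4, 85.1 and 238 CPM with Baf45d siRNA. This sum was high in replicate 3 like the fibrillins, as were Acta2, Tagln and Cnn1 each. Myh11 departed from it, with 1.29, 0.80 and 0.39 CPM in NC replicates 1 to 3. Of the 4 markers, 3 had a negative log2 fold change and 1 a positive one (Tagln, 0.25). The 5 neuron markers summed to 786, 712 and 709 CPM and to 1035, 929 and 643 CPM, lowest in Baf45d replicate 3, and all 5 had a positive log2 fold change. The sum of the 5 endothelium markers, mostly Kdr, ranged from 36.4 to 43.1 CPM with NC siRNA and from 32.0 to 37.7 CPM with Baf45d siRNA. Of the 3 tested, 1 had a negative log2 fold change (Kdr, -0.28) and 2 a positive one (Tek, 0.83, and Pecam1, 0.07). The sum of the 4 neural progenitor markers ranged from 385 to 468 and from 389 to 464 CPM. The 5 endoderm markers, mostly Gata6, ranged from 70.7 to 79.5 and from 55.7 to 69.2 CPM, and the 3 pluripotency markers from 4.51 to 6.33 and from 5.06 to 5.64 CPM. The part of these markers in the values of the elastic fibre genes was not tested. In these bulk libraries, fewer cells of a type and less RNA per cell cannot be told apart.

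Emilin1 was compared with 10453 other genes of at least 10 CPM by the root mean square difference between log2 CPM profiles, each centred on its mean over the 6 libraries. The 5 nearest were Matn2, a matrilin of the matrix (0.10), the somite homeobox gene Meox1 (0.11), the collagen chain Col1a2 (0.12), the integrin subunit gene Itga9 (0.12) and Egflam, which encodes the matrix protein pikachurin (0.13). Like Emilin1, each had its 2 highest values in NC replicates 1 and 2, a likeness that the choice by profile largely entails. Meox1, for example, stood at 56.3, 57.6 and 40.1 CPM in NC replicates 1 to 3 and at 39.6, 40.3 and 37.3 CPM in Baf45d replicates 1 to 3. Itga9, whose protein is part of an EMILIN-1 receptor, stood at 28.0, 27.3 and 20.2 CPM and at 19.7, 21.5 and 16.9 CPM. Among the genes of the set, Emilin2 (0.20), Ltbp4 (0.22) and Mfap2 (0.24) were nearest to Emilin1, and Fbn1 (0.43), Fbn2 (0.47) and Fbln5 (0.53) were farthest.

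**Figure D4:**
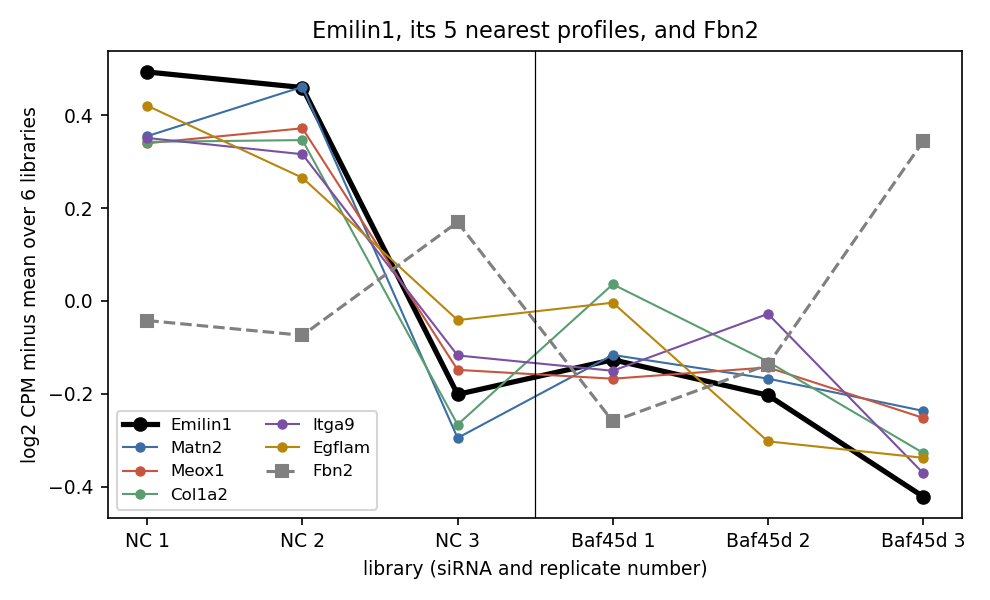
Log2 CPM minus the mean over the 6 libraries for Emilin1 (black), the 5 genes with the nearest profile (colours) and Fbn2 (grey, dashed), by library, with lines joining the values of a gene only to guide the eye. Emilin1 and its neighbours are high in NC replicates 1 and 2, and Fbn2 is highest in Baf45d replicate 3 (0.34).

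Beyond the set, 39 further genes of elastic fibre assembly and its receptors were listed by role. Of these, 32 passed the filter, and 0 passed the edgeR threshold in either direction (0% of all genes tested). A negative log2 fold change was found for 27 and a positive one for 5, with a median of -0.18 against 0.01 over all genes tested, of which 48.1% were negative. In 8 of the 32 all Baf45d libraries lay below all NC libraries (4.3% of all genes tested). These 8 were Lox, Loxl2, Efemp2, Ltbp1, Emilin3, Furin, Mmp2 and Mmp14. In 1, Hmcn1, all lay above, as in 602 of all 16078 genes tested. Without both libraries numbered 3, again 27 of 32 were negative. Between those libraries themselves the genes were divided. Loxl1, Loxl3, Loxl4, Atp7a, Hmcn1, Thsd4, Tgfb2, Itga5, Itgav, Itgb1 and Itgb3 were higher with Baf45d siRNA, and the remaining tested genes were lower. The list was chosen with earlier results of these data known, so these counts are a description.

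By role, the cross-linking group, which joins elastin and collagen chains, had 5 of 6 genes with a negative log2 fold change. Loxl2, a lysyl oxidase, had the highest level and stood at 41.8 ± 1.06 FPKM in the NC group and 34.3 ± 5.53 FPKM in the Baf45d group (log2 fold change -0.29, SE 0.11). Atp7a, the copper pump that loads these enzymes, stood at 10.9 ± 0.372 and 10.9 ± 0.373 FPKM (log2 fold change 0.00, SE 0.07). Of the other fibulins, 2 of 3 tested were negative. Efemp2, which encodes fibulin-4, stood at 22.8 ± 2.18 and 20.1 ± 1.11 FPKM (log2 fold change -0.19, SE 0.10), and Efemp1 at 18.04 ± 0.925 and 14.99 ± 3.86 FPKM (log2 fold change -0.27, SE 0.16).

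The other microfibril proteins were split, with 4 of 7 tested genes negative. Mfap4, a microfibril-associated glycoprotein gene, stood at 39.0 ± 8.96 FPKM in the NC group and 32.6 ± 4.06 FPKM in the Baf45d group (log2 fold change -0.26, SE 0.17), and Mfap3 at 30.2 ± 1.43 and 31.0 ± 0.259 FPKM (log2 fold change 0.03, SE 0.07). Of the remaining EMILIN and multimerin genes, Emilin3 stood at 1.164 ± 0.0503 and 1.06 ± 0.0165 FPKM (log2 fold change -0.13, SE 0.18) and Mmrn2 at 0.180 ± 0.0647 and 0.126 ± 0.0978 FPKM (log2 fold change -0.52, SE 0.60). Mmrn1 did not pass the filter.

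All 4 genes of the TGF-beta ligand and furin group were negative, as were all 7 integrin genes and all 3 tested genes for elastin-degrading enzymes. The ligand gene Tgfb3 stood at 16.7 ± 1.49 FPKM in the NC group and 15.4 ± 0.907 FPKM in the Baf45d group (log2 fold change -0.12, SE 0.10), and Tgfb2 at 12.4 ± 0.619 and 11.5 ± 2.005 FPKM (log2 fold change -0.11, SE 0.12). The integrin subunit Itgb1, shared by many matrix receptors, stood at 108 ± 16.7 and 102 ± 27.1 FPKM (log2 fold change -0.09, SE 0.18), and the fibronectin receptor subunit Itga5 at 18.6 ± 0.369 and 15.1 ± 3.92 FPKM (log2 fold change -0.30, SE 0.15). The gelatinase gene Mmp2 stood at 19.4 ± 1.33 and 16.7 ± 0.538 FPKM (log2 fold change -0.22, SE 0.09), and Mmp14, whose product activates it, at 16.6 ± 0.953 and 14.8 ± 0.0898 FPKM (log2 fold change -0.17, SE 0.08).

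**Figure D5:**
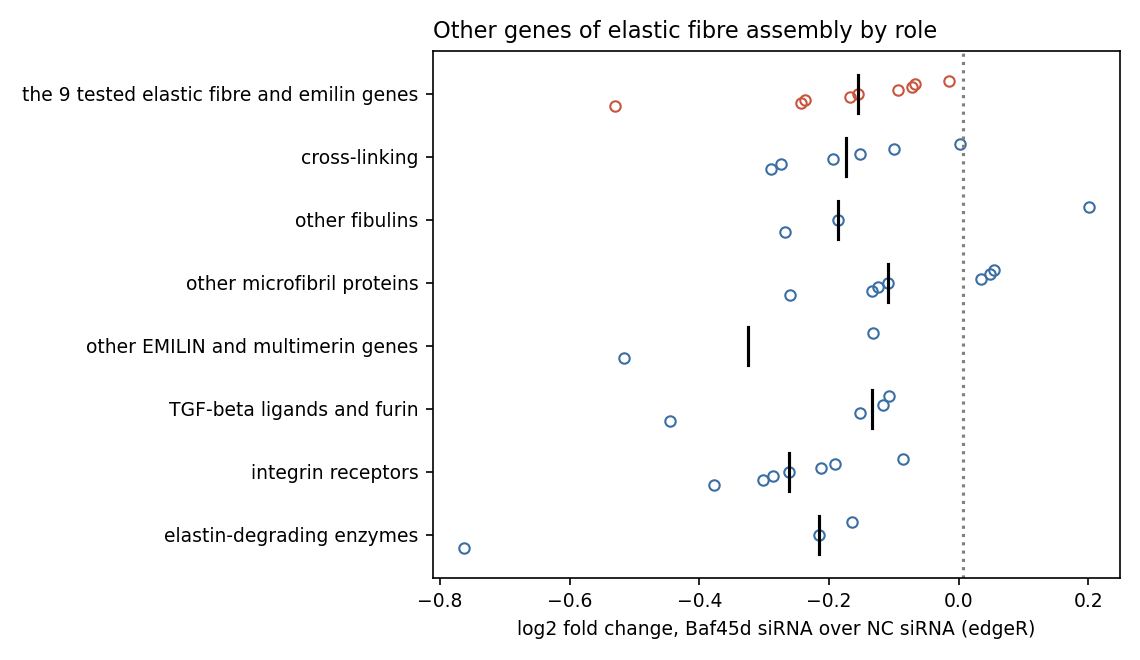
Log2 fold change, Baf45d siRNA over NC siRNA, of the 9 tested elastic fibre and emilin genes (red) and of the 32 further tested genes by role (blue), with a black bar at each group's median and a dotted line at the median of all genes tested (0.01). Most points lie left of the dotted line, and the group medians run from -0.11 to -0.32.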

How the data were processed

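RNA-seq of 6 P19 samples was used, 3 per siRNA group. The authors deposited 1 table with raw counts per gene and, per the file headers, FPKM values. In every library counts of 50 or more divided by FPKM and gene length gave a constant within 1%. The authors also deposited a log2 fold change, p-value and adjusted p-value per gene, a Reactome table with p-values and counts of listed genes (a unit of its own, here called other), and a protein-pair table with a score. The submitters' processing notes name DESeq2 1.16.1 and mm9. Coordinates nonetheless equalled those of GENCODE M21 (GRCm38) for 98.3% of 54495 genes and for 9 of the 10 genes described (all but Fbn2), so GRCm38 is given. No aligner or counter is named in the sources used here. The library kit is named in the labels without its strand.

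Counts were fitted with edgeR 4.0.16 in R 4.3.3 (filterByExpr defaults, TMM, robust quasi-likelihood F test, two-sided, group alone, Benjamini-Hochberg over all 16078 genes, threshold 0.05), after a check on simulated counts. For genes at 5 CPM or more, the SE of the log2 fold change had a median of 0.112. Centred profiles used log2 CPM with a prior count of 2. Alternatives used DESeq2 1.42.0, limma 3.58.1 (voom, and log2 FPKM with pseudocounts of 1 and 0.1), other scalings and filters, and omissions. Promoter windows came from a RefSeq table, and those of 8 of the 10 genes were used. Windows of these genes on chromosome 18, where Fbn2 lies, were left out, and none was found for Eln. Figures were drawn with matplotlib 3.10.9.

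The labels number replicates 1 to 3 in both groups. Over genes, deviations of libraries 1, 2 and 3 from their group means correlated with those of namesakes at r = 0.172, 0.134 and 0.346. Other pairs gave values between -0.244 and 0.115. The value of 0.115, for NC 1 with Baf45d 2, was close to 0.134, so only the libraries numbered 3 stood out as a pair. The labels name no pairing, and same-numbered differences are given as a description. The main fit used group alone, and the replicate number was a block only in an alternative. Libraries of a group differed beyond sampling noise (chi-square over its degrees of freedom between 3.32 and 22.7), so all 6 were kept. The genes and lists were chosen with earlier results of these data known. Named were the 10 genes, the 2 genes with the highest FPKM per role, the 5 profiles nearest to Emilin1 and Dpf2. Others were named after their values were seen.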

Additional observations from a re-analysis of the deposited data

How the results depend on the processing

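The negative sign of Emilin1 and Ltbp4 held in all 17 alternatives, as did those of Emilin2, Fbn1, Fbln1 and Fbln2. The log2 fold change of Emilin1 ran from -0.72 to -0.41 over single omissions and was -0.54 without a filter on low counts and -0.64 without both libraries numbered 3, the 2 settings in which it passed the threshold. The cause was not tested. Signs turned only in single omissions, where Fbn2 ran from -0.22 to 0.10, Fbln5 from -0.50 to 0.043 and Mfap2 from -0.18 to 0.0042. The count of genes called, 0 in the main fit, was 10 without a filter and 1 with the replicate block, both with all libraries. It was 20 without both libraries numbered 3, and from 0 to 44 over single omissions, where the 44 came without Baf45d replicate 3. The number of the 9 genes with groups that do not overlap, 0 with all libraries, was 0 to 5 over single omissions, where the 5 came without NC replicate 3 (17.8% of all 16078 genes tested separated under that omission, and 13% to 31.2% over the 6 omissions), and 8 without both libraries numbered 3. With the replicate block the log2 fold change of Emilin1 was -0.50 (SE 0.08, edgeR adjusted p = 0.131), and the block changed no call among the genes described. The count of negative genes stayed within 1.5 times its main value in every alternative, though the number of genes with a fit differed between settings. The lowest and highest counts were 7 of 9 and 10 of 10 for the set. For the further genes they were 22 of 27 and 32 of 39. Eln and Fbln5 had the fewest counts, so their differences are the least precise.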

Other observations

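In the authors' deposited table of all genes, Emilin1 had a log2 fold change of -0.53 with an unadjusted p of 0.00113 and an adjusted p of 1.00. In the authors' deposited table Ltbp4 had a log2 fold change of -0.24, an unadjusted p of 0.0361 and the same adjusted p. The authors' deposited table of Reactome terms lists Ltbp4 and Loxl2 under elastic fibre formation, both down, as 2 of its 151 genes against 43 of 7923 in the background (adjusted p = 0.413). The authors' deposited table of protein pairs holds 1 pair with a gene of the set, Emilin1 with Col1a2, at a score of 468.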
